A study of Drosophila melanogaster with 6 samples.

Results

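The 10 genes described here encode enzymes of glycolysis and lactate dehydrogenase, whose transcripts were measured by RNA-seq in the antennae of female Drosophila melanogaster. They were taken by symbol as Pfk, Ald1, Tpi, Gapdh1, Gapdh2, Pgk, Pglym78, Eno, Pyk and Ldh, and all 10 were found among the 17698 gene identifiers of each library. Control flies carried peb-Gal4/+;Or49a-GFP/+, and PCD-blocked flies carried peb-Gal4/+;Or49a-GFP/UAS-p35. PCD stands for programmed cell death, and p35 is a baculoviral inhibitor of caspases, the proteases that carry out apoptosis. Both groups therefore shared the Gal4 driver peb-Gal4 and the reporter Or49a-GFP, and the labels describe p35 as expressed in the antennae without giving the cell types or the age of the flies. Each group had 3 libraries, in 3 sample pairs, and each library pooled the antennae of about 350 flies kept at 25 °C in 12 h of light and 12 h of dark.

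Glycolysis splits sugar phosphates into pyruvate in the cytosol, yielding ATP and turning NAD+ into NADH. Pyruvate then either enters the mitochondria or is reduced to lactate by Ldh, which returns NAD+ to the pathway. In Drosophila embryos and larvae Ldh and the glycolytic genes are switched on together by the nuclear receptor ERR, and Ldh is also a standard target of Sima, the hypoxia-inducible factor of the fly, so the question was whether Ldh moved with the pathway or apart from it. Whole antennae hold neurons, glia, support cells and epidermis. In such bulk samples more cells of a type and more RNA per cell cannot be told apart.

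Libraries held 15588725 to 17808516 counts assigned to genes, so each of the 10 genes rested on at least 202 counts in every library. Levels are given as CPM, the usual depth-scaled unit of count data, computed here on library totals scaled by TMM. Antennal markers were abundant: Orco, the odorant co-receptor, had 3012 ± 54.0 CPM in controls (SD, n = 3) and was not called. Of 8 tested antennal markers, 1 was called higher and 3 lower (50%, beside 27.7% of all tested genes). Their sum was 20067 to 20598 CPM in the controls and 19029 to 19455 CPM in PCD-blocked libraries, without overlap. Most of it came from Obp83a and Obp83b, with control means of 9856 and 4539 CPM, and neither of them was called. Ir25a rose by 0.45 on the log2 scale, while Or22a fell by 0.49, lush by 0.39 and Ir8a by 0.11. Summed levels of muscle markers differed between libraries within both groups, and what underlay this was not tested. The sum of 12 muscle markers ran from 37.8 to 103 CPM in the controls and from 48.5 to 129 CPM in PCD-blocked libraries, with 0 of the 8 tested markers called. Among them the titin-like gene sls, at a log2 fold change of 0.47, was called higher under 5 of 10 alternatives, with the smallest edgeR adjusted p, 0.00293, without pair 2. The myosin gene Mhc had 0 counts in PCD-blocked 1 and 384 in PCD-blocked 3. Of 4 tested fat body markers, 1 was called higher and 2 lower (75%). The sums of the list were 44.9 to 177 CPM in the controls and 68.6 to 80.3 CPM in PCD-blocked libraries.

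Ldh was the gene that stood out. Ldh (FBgn0001258, BDGP6, chromosome 3L, 6259105 to 6262694, minus strand) had 18.1, 11.7 and 13.9 CPM in control 1, 2 and 3. It had 73.5, 88.1 and 62.0 CPM in PCD-blocked 1, 2 and 3. Every PCD-blocked library lay far above every control library, and the groups did not overlap. The mean of 3 libraries was 14.5 ± 3.25 CPM (SD) in controls and 74.5 ± 13.1 CPM (SD) with death blocked, which was 5.11-fold higher with a 95% interval of 4.12 to 6.34 (log2 fold change 2.35, SE 0.14, adjusted p = 7.24e-06, edgeR quasi-likelihood test). Within the pairs the log2 ratio was 2.02, 2.92 and 2.16. Of 9181 tested genes, 58, or 0.632%, had a log2 fold change at or above that of Ldh, Ldh included. No other annotated gene overlaps the exons of Ldh.

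**Figure D1:**
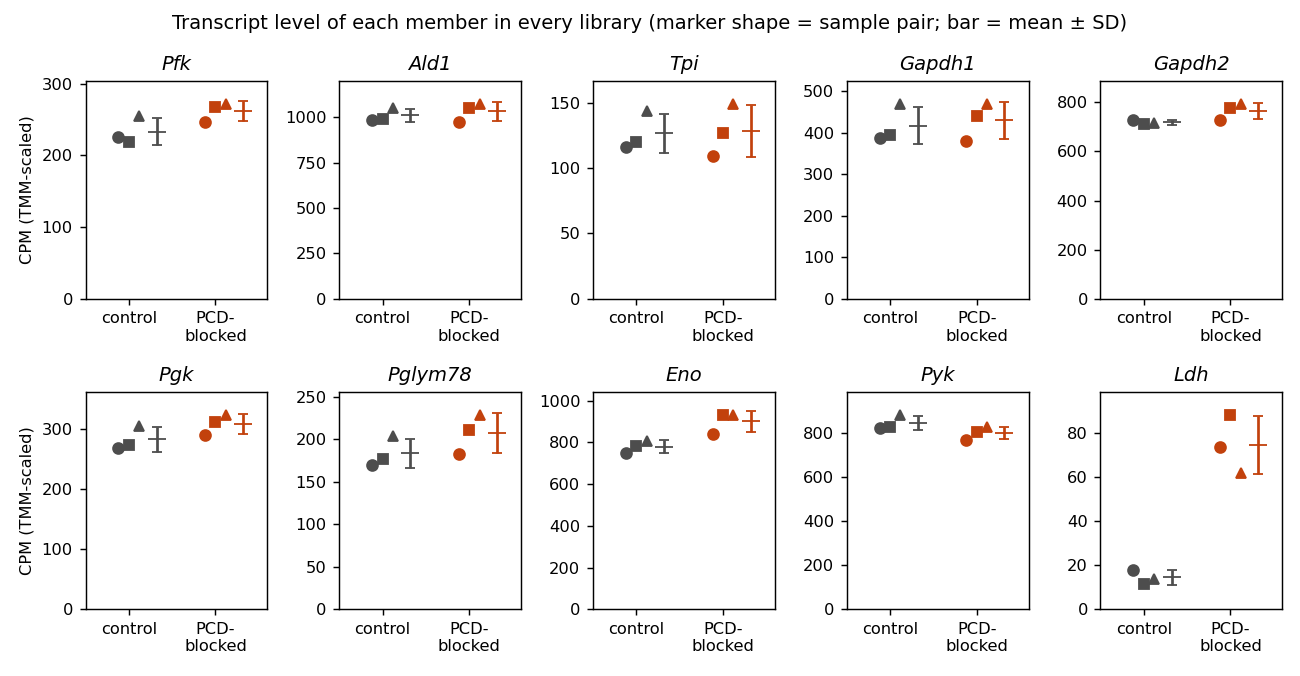
CPM of each of the 10 genes (y axis, from 0) in the 3 control and the 3 PCD-blocked libraries, with a marker shape per sample pair and the mean ± SD beside the points. Ldh goes from 11.7 to 18.1 CPM in controls to 62.0 to 88.1 CPM in PCD-blocked libraries, while the other genes keep nearly the same level in both groups.

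The first steps described here are those of phosphofructokinase, aldolase and triose phosphate isomerase, and of these only Pfk passed the test. Pfk (FBgn0003071, chromosome 2R, 10109740 to 10117457), which encodes the enzyme of the committed step, had 225, 219 and 254 CPM in the controls and 247, 268 and 271 CPM in PCD-blocked libraries. The ranges of the groups overlapped through control 3, but the PCD-blocked library was higher in 3 of 3 pairs (log2 fold change 0.17, SE 0.04, edgeR adjusted p = 0.0174). Ald1 (chromosome 3R, 26254069 to 26261591), for aldolase, had 988, 991 and 1055 CPM in the controls and 974, 1055 and 1072 CPM in PCD-blocked libraries. Tpi (chromosome 3R, 30132981 to 30134599), for triose phosphate isomerase, had 116, 120 and 143 CPM against 110, 126 and 149 CPM. Neither gene was called, and the 95% intervals of their log2 fold changes were narrow, from -0.05 to 0.11 for Ald1 and from -0.07 to 0.11 for Tpi. The adjusted p-values were 0.556 for Ald1 and 0.783 for Tpi with edgeR.

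Glyceraldehyde phosphate dehydrogenase, the step that makes NADH, is encoded by the paralogs Gapdh1 and Gapdh2, and neither was called. Gapdh1 (chromosome 2R, 7791901 to 7793380) had 387, 395 and 468 CPM in the controls and 381, 441 and 468 CPM in PCD-blocked libraries. Gapdh2 (chromosome X, 15868145 to 15869661) had 730.3, 711 and 715 CPM in the controls and 728, 777 and 792 CPM in PCD-blocked libraries. Control 1 was above PCD-blocked 1 for both genes, so the groups overlapped. The intervals of the log2 fold change were -0.05 to 0.14 for Gapdh1 and 0.0028 to 0.18 for Gapdh2, with adjusted p-values of 0.466 and 0.1195 (edgeR). Gapdh2 passed without pair 1 (edgeR adjusted p = 0.0285, with alternatives spanning 0.0285 to 0.451). The paralogs are similar in sequence, and reads that aligned to several places were set aside in a row that names no gene. How many of those came from these paralogs was not tested.

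The 3 steps after Gapdh showed small rises. Pgk (chromosome 2L, 2746880 to 2753068), for phosphoglycerate kinase, which makes ATP, had 269, 274 and 306 CPM in the controls and 290.4, 312 and 324 CPM in PCD-blocked libraries. Pglym78 (chromosome 3R, 29148248 to 29149901), for phosphoglycerate mutase, had 169.9, 176 and 203 CPM against 182, 210.4 and 228 CPM. For both genes the ranges overlapped, because control 3 was above PCD-blocked 1, yet 3 of 3 pairs were higher. Their log2 fold changes were 0.13 ± 0.03 (SE, edgeR adjusted p = 0.0262) and 0.18 ± 0.04 (SE, edgeR adjusted p = 0.00826).

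Eno (FBgn0000579, chromosome 2L, 1724768 to 1729636), for enolase, had 749.6, 783 and 808 CPM in the controls and 839.7, 930.3 and 931 CPM in PCD-blocked libraries. It was the one enzyme besides Ldh whose groups did not overlap. The mean went from 780.3 ± 29.3 to 900.4 ± 52.6 CPM, a rise of 15.3% (log2 fold change 0.21, SE 0.03, edgeR adjusted p = 0.00195). Pyk (FBgn0267385, chromosome 3R, 22367536 to 22372746), for pyruvate kinase, which makes the pyruvate that Ldh uses, had 823, 825 and 880.0 CPM in the controls and 769, 802 and 826 CPM in PCD-blocked libraries. It was lower in 3 of 3 pairs but was not called (log2 fold change -0.08, SE 0.03, edgeR adjusted p = 0.114).

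In all, 5 of the 10 genes were called higher and 0 lower with edgeR, and 5 were not called. Over all tested genes 27.7% were called, 14.3% higher and 13.3% lower. Eno and Ldh were the 2 of 10 genes without overlap between the groups, against 38.7% of all tested genes. The median log2 fold change of the 10 genes was 0.11, beside 0.00084 over all tested genes and a median absolute value of 0.12. The calls of Pfk, Pgk and Pglym78 depended on pair 2: without it their adjusted p-values were 0.163, 0.227 and 0.101 with edgeR, and without the pair as a block 0.0796, 0.169 and 0.1799. Pgk was also lost with DESeq2 (0.101) and without pair 1 (0.0528), so 2 genes, Ldh and Eno, were called under all 10 alternatives.

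Ldh and the other 9 genes were next set side by side within each library. The summed level of the other 9 genes was 4458, 4495 and 4833 CPM in the controls and 4521, 4922 and 5062 CPM in PCD-blocked libraries. Ldh amounted to 0.405%, 0.2599% and 0.287% of that sum in controls and to 1.63%, 1.79% and 1.22% in PCD-blocked libraries. The sums overlapped between the groups and the shares did not. The fitted log2 fold change of Ldh exceeded the median of the other 9, 0.09, by 2.26, and the other 9 lay between -0.08 and 0.21. Within pairs 1, 2 and 3 the excess of Ldh was 2.03, 2.76 and 2.08.

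As a ratio of counts within a library, which needs no scaling between libraries, Ldh rose against each of the other 9 genes by 2.16 (against Eno) to 2.44 (against Pyk) on the log2 scale. The control and PCD-blocked ratios did not overlap for any of the 9. An exact two-sided permutation test over the libraries gave p = 0.1 for each, also after adjustment over the 9 ratios, which is the smallest p that 3 against 3 libraries allow. The direction was the same in 3 of 3 pairs for each ratio. All 9 ratios share Ldh, whose own groups did not overlap, so they are not 9 separate results.

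**Figure D2:**
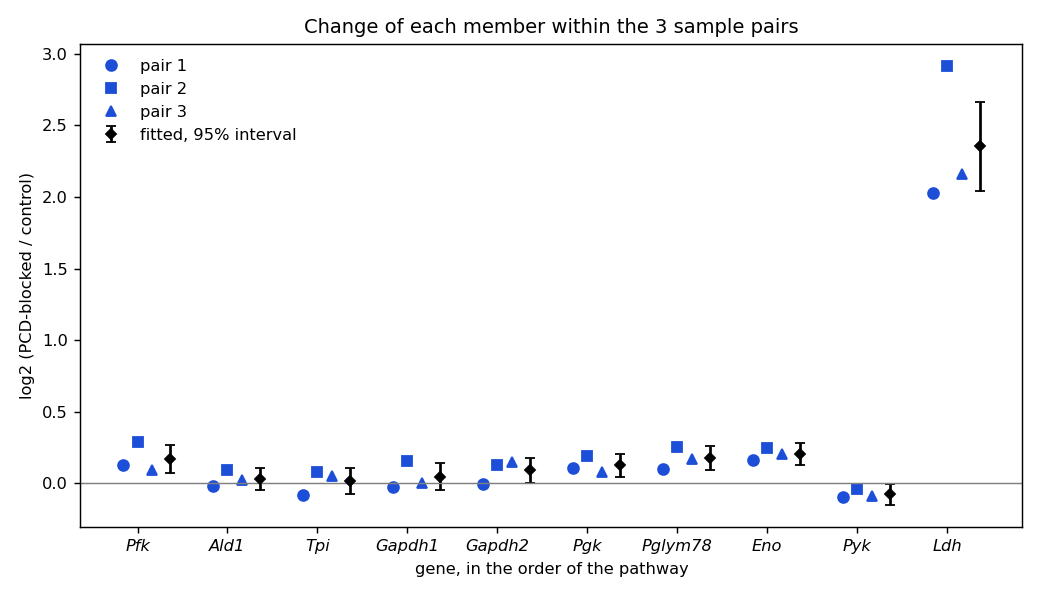
Log2 ratio of PCD-blocked over control CPM (y axis) for each gene in pathway order (x axis), with 1 blue point per sample pair and the fitted log2 fold change with its 95% interval in black. Ldh lies at 2.02 to 2.92 in the 3 pairs, and the fitted values of the other 9 genes lie between -0.08 and 0.21.

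The libraries of a group fell into much the same order for most of the 9 enzymes. Control 3 was the highest control library for 8 of the 9 enzymes, and PCD-blocked 3 was the highest PCD-blocked library for 9 of 9. PCD-blocked 1 was the lowest of its group for 9 of 9. Ldh was highest in control 1 and PCD-blocked 2 and lowest in control 2 and PCD-blocked 3. Gapdh2 had the order of Ldh among the controls but not among the PCD-blocked libraries. This pattern is a description of 6 libraries without a test.

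Levels of different genes were compared per kilobase of exon, with the exons of all annotated transcripts of a gene merged. The merged length was 3809 bp for Ald1 and 3718 bp for Eno, against 1443 bp for Gapdh2, and the order depends on it. By CPM alone Ald1 was the highest, with a control mean of 1011 CPM against 719 CPM for Gapdh2. In control antennae Gapdh2 was the most abundant with 498 ± 7.10 CPM per kb (SD, n = 3), ahead of Pyk with 376 ± 14.4 CPM per kb. Gapdh1 with 282 ± 30.2 and Ald1 with 265 ± 9.97 CPM per kb followed, and their libraries overlapped, so their order was not resolved. Eno had 209.9 ± 7.88, Pglym78 161 ± 15.5, Pgk 134 ± 9.53, Tpi 81.1 ± 9.43 and Pfk 53.2 ± 4.32 CPM per kb, none of them overlapping its neighbours in this order. Ldh was last, with 7.49 ± 1.67 CPM per kb in controls. In PCD-blocked antennae Ldh reached 38.4 ± 6.75 CPM per kb and still lay below Pfk, which had 59.8 ± 3.04 CPM per kb. Ldh was thus the least abundant of the 10 transcripts per kb in both groups.

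Exons of 4 genes overlap a gene on the opposite strand. Of these, 338 bp of Ald1 exon are shared with asRNA:CR44321, 362 bp of Eno with Rrp40, 65 bp of Pgk with Cwc25 and 6 bp of Pglym78 with eIF2D, and if counting did not use strand, reads there cannot be told apart. Group means of these partners were at most 31.4 CPM, the value of eIF2D in controls. Group means were at least 780.3 CPM for Eno, 283 CPM for Pgk and 183 CPM for Pglym78. Rrp40 had 6.37 ± 1.07 CPM in the controls and 5.60 ± 0.308 CPM with death blocked and was not called (edgeR adjusted p = 0.400).

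The genes that feed sugar into glycolysis moved in both directions. Of 4 tested entry genes, 1 was higher and 0 lower (25%, beside 27.7% of all tested genes called). Hex-A, for a hexokinase, had 452, 431 and 470.3 CPM in the controls and 517, 592 and 523 CPM in PCD-blocked libraries, without overlap (log2 fold change 0.27, SE 0.06, edgeR adjusted p = 0.00724), a call lost without pair 2 (0.0519). Pgi, for glucose phosphate isomerase, had a log2 fold change of 0.08 with an SE of 0.03 and was not called. Of 12 tested genes of sugar supply, 2 were higher and 3 lower (41.7%), with a median log2 fold change of 0.03. Treh, which encodes trehalase, the enzyme that splits the blood sugar of insects into glucose, had 632, 604 and 802 CPM in the controls and 424, 438 and 452 CPM in PCD-blocked libraries. It fell by 0.62 on the log2 scale (0.06 SE, edgeR adjusted p = 0.000128). UGP, for the enzyme that makes UDP-glucose, fell by 0.24 and the sugar transporter gene sut1 by 0.30, while the trehalose transporter gene Tret1-1 rose by 0.29 and the glucose transporter gene Glut1 by 0.13. Glut1 did not pass with pair 1 left out (edgeR adjusted p = 0.1497), with pair 2 left out (0.157) or with no block (0.0505), and the sut1 call was lost without pair 2 (0.0857) and with DESeq2 (0.0655). Of 9 paralogs of the glycolytic genes, 2 had enough counts to be tested, CG7059 and CG7069, and their adjusted p-values were 0.119 and 0.219 with edgeR.

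The pentose phosphate pathway, which branches from glycolysis and makes NADPH and ribose, had the largest share of lower genes among the lists. Of 7 tested genes, 0 were higher and 6 lower, beside 13.3% lower among all tested genes, and the median log2 fold change was -0.27. Pgd, for phosphogluconate dehydrogenase, had 246, 279 and 253 CPM in the controls and 146, 163 and 151 CPM in PCD-blocked libraries, a fall of 0.76 on the log2 scale (0.03 SE, edgeR adjusted p = 1.55e-06). The ribose phosphate isomerase gene Rpi fell by 0.63, the epimerase gene Rpe by 0.50, the transaldolase gene Taldo by 0.27 and the transketolase gene CG8036 by 0.23. These 5 calls held under all 10 alternatives. The lactonase gene CG17333 fell by 0.19, a call lost with DESeq2 (adjusted p = 0.488) and without any one of the pairs (0.0948 to 0.171 with edgeR). Zw, for the entry enzyme glucose phosphate dehydrogenase, had 404 ± 20.3 CPM in the controls and 423 ± 16.5 CPM with death blocked and was not called (edgeR adjusted p = 0.292).

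Genes that use pyruvate and NADH changed little. Of 15 tested, 1 was higher and 1 lower (13.3%, beside 27.7% of all tested genes), with a median log2 fold change of 0.0036. Gpdh1, for glycerol phosphate dehydrogenase, which like Ldh regenerates NAD+ in the cytosol, had 284, 269 and 313 CPM in the controls and 301, 317 and 336 CPM in PCD-blocked libraries (log2 fold change 0.14, SE 0.04, edgeR adjusted p = 0.0269). Mdh1, for cytosolic malate dehydrogenase, fell by 0.15 (edgeR adjusted p = 0.00872). The Gpdh1 call was lost with DESeq2 (0.0669), with no block (0.145), without pair 2 (0.239) and without pair 3 (0.0513), and the Mdh1 call with no block (0.0640) and without pair 3 (0.0604). The pyruvate dehydrogenase genes Pdha and Pdhb had log2 fold changes of 0.01 and 0.09, and their inhibitory kinase gene Pdk 0.03, none of them called.

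Of 8 tested genes of the monocarboxylate transporter family, whose members carry lactate, pyruvate and related acids, 4 were higher and 1 lower. That was 62.5%, beside 27.7% of all tested genes. Sln had 77.5, 74.9 and 72.3 CPM in the controls and 88.2, 86.1 and 91.2 CPM in PCD-blocked libraries, a rise of 0.24 on the log2 scale (0.04 SE, edgeR adjusted p = 0.00265) that held under all 10 alternatives. Mct1 and kar rose by 0.26 and 0.25 and CG13907 by 0.11, while out fell by 0.12. DESeq2 did not call any of these 4 (adjusted p = 0.236, 0.122, 0.2100 and 0.127). The calls held under 7 of the 10 alternatives for Mct1, 9 for kar, 4 for CG13907 and 6 for out. Without pair 2 or without pair 3 the higher genes of the family numbered 2. Of 16 tested genes on the list of the tricarboxylic acid cycle, 1 was higher and 4 lower (31.25%). The aconitase gene mAcon1 fell by 0.32 and ScsbetaG, for a subunit of succinyl-CoA ligase, by 0.47. Idh, for the isocitrate dehydrogenase that makes NADPH rather than NADH, was on the list too and fell by 0.29. All 3 calls held under all 10 alternatives. Idh3a, Idh3b and Idh3g, for the NADH-making isocitrate dehydrogenase of the cycle, had log2 fold changes of 0.03, 0.01 and 0.05 and were not called. SdhD was higher by 0.13 and CG5214 lower by 0.10, calls that held under 6 and 5 of the 10 alternatives. Both were lost with DESeq2 (adjusted p = 0.134 and 0.167), with no block (0.0618 and 0.340), without pair 2 (0.215 and 0.201) and without pair 3 (0.101 and 0.107), and that of CG5214 also without pair 1 (0.0714).

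**Figure D3:**
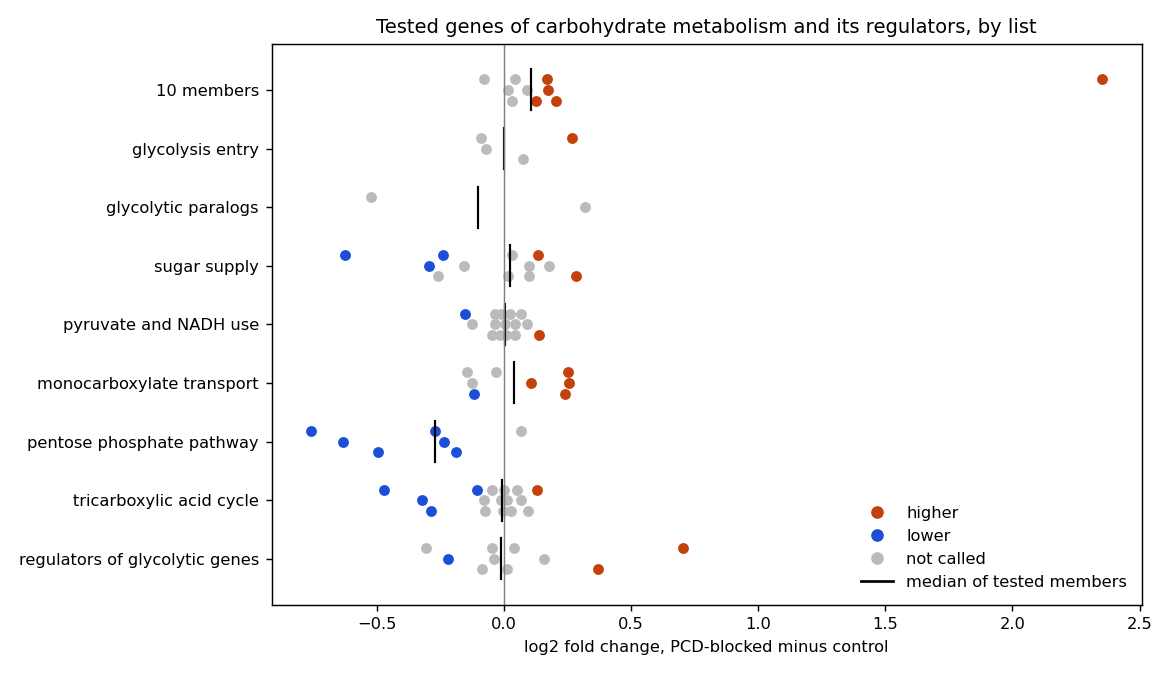
Log2 fold change, PCD-blocked minus control (x axis), of each tested gene of the 10 described here and of 8 lists (rows), colored by call (edgeR, adjusted p under 0.05), with the median of each row as a black line. Ldh lies alone at 2.35, and 6 of 7 genes of the pentose phosphate pathway lie below 0 and were called lower.

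Of 10 tested regulators of glycolytic genes, 2 were higher and 1 lower (30%, beside 27.7% of all tested genes called). Hph, which encodes the prolyl hydroxylase that marks Sima for degradation and is itself raised by hypoxia in flies, had 69.9, 69.0 and 69.0 CPM in the controls and 109.95, 113 and 116 CPM in PCD-blocked libraries. The groups did not overlap, and the level rose 1.63-fold (log2 fold change 0.71, SE 0.04, edgeR adjusted p = 3.74e-06, called under all 10 alternatives). The transcript of sima itself had 274 ± 4.39 CPM in the controls and 282 ± 7.37 CPM with death blocked and was not called (edgeR adjusted p = 0.375), and that of its partner tgo had a log2 fold change of -0.08, not called. ERR fell by 0.22 (edgeR adjusted p = 0.00576), a call that DESeq2 did not make (0.0767). Myc, a growth regulator, rose by 0.37 (edgeR adjusted p = 0.000938), a call lost without the pair as a block (0.0608).

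The position of Ldh was examined after its value had been seen, as was the choice of a window of 100 kb on each side. Within it lie 18 other tested genes, of which 5 were higher and 1 lower (33.3%, beside 27.7% of all tested genes). The 3 that changed by more than 2-fold were the odorant receptor genes Or65a, Or65b and Or65c, 57.9 to 64.9 kb from Ldh, and 3.49% of all tested genes were called with a change of that size. Or65a went from 9.13 ± 2.93 to 43.8 ± 3.67 CPM, Or65b from 12.2 ± 2.05 to 47.6 ± 3.09 CPM and Or65c from 3.08 ± 1.10 to 12.6 ± 0.759 CPM. No tested gene lies between Ldh and these receptor genes, and beyond them CG13300, at 66.6 kb, had a log2 fold change of -0.85 and was not called (edgeR adjusted p = 0.0759). On the other side, the nearest gene, Best2, 2.44 kb away, fell by 0.14 on the log2 scale, Mdr65 at 13.4 kb had a value of 0.04 and was not called, and CG10226 at 19.0 kb rose by 0.23. The fifth gene called higher, fmt at 85.2 kb, rose by 0.16, a call lost with DESeq2 (adjusted p = 0.0578), with no block (0.0811) and without pair 2 (0.0540). The Best2 call was lost with DESeq2 (adjusted p = 0.251) and without pair 1 (0.0648 with edgeR) or pair 3 (0.139 with edgeR). Around the other 9 genes, windows of the same size held 8 to 34 tested genes, of which 9.09% to 50.0% were called, and 0 to 2 were called with a change of more than 2-fold. Where the transgenes are inserted, and in which genetic backgrounds, is not given in the sources used here. UAS-p35 was carried by PCD-blocked flies alone. For every gene described here, Ldh and the Or65 genes included, an effect of blocked cell death therefore cannot be told apart from one of the inserted transgene or of the background.

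**Figure D4:**
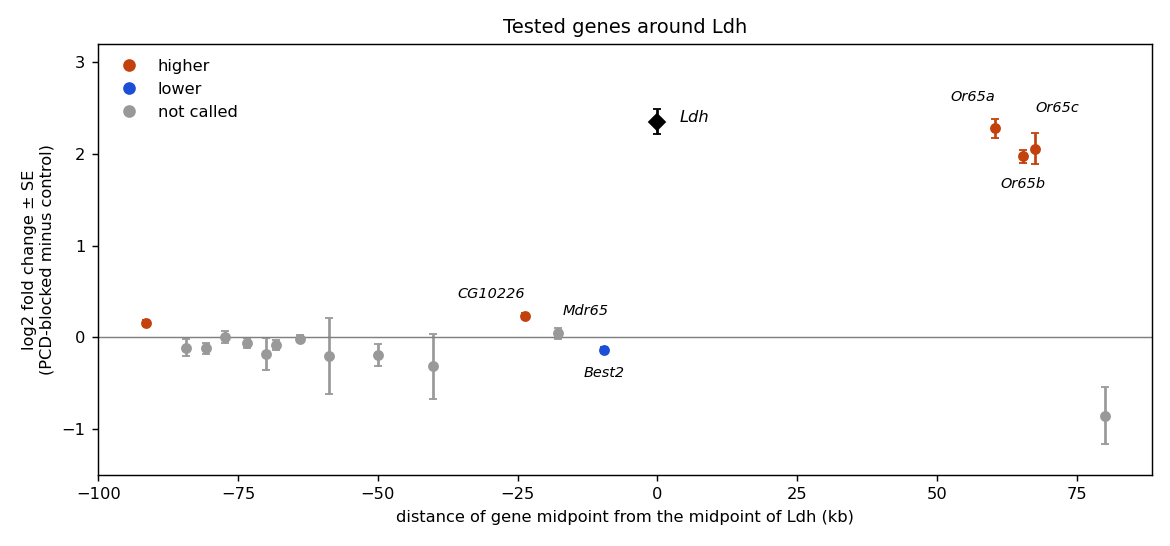
Log2 fold change ± SE (y axis) of the 18 tested genes within 100 kb of Ldh against the distance of their midpoints from that of Ldh in kb (x axis), colored by call (edgeR). Or65a, Or65b and Or65c lie near Ldh at 1.97 to 2.28, CG13300 beyond them lies at -0.85 and was not called, and the genes on the other side lie between -0.32 and 0.23.

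Genes were ranked by how closely their 3 within-pair log2 ratios matched those of Ldh, among 6685 tested genes with a mean of at least 10 CPM. The 5 nearest were Or65a (root mean square difference 0.34), Fife (0.39), Hsp68 (0.43), CG5597 (0.52) and Or65b (0.53). Their pair ratios were 1.94, 2.46 and 2.52 for Or65a, 2.24, 2.30 and 2.02 for Fife and 2.51, 2.51 and 1.79 for Hsp68, beside 2.02, 2.92 and 2.16 for Ldh. Fife encodes a protein of the presynaptic active zone, and Hsp68 an inducible heat shock protein. Or65a, Fife, Hsp68 and CG5597 had 4.83 to 9.13 CPM in controls, so they reached the minimum mean only through the PCD-blocked group. The measure rests on 3 pairs and, since it chose these genes, it was not tested.

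Glia of the fly brain are known as highly glycolytic cells, so markers of glia and of other cells were read beside Ldh. Of 7 tested glial markers, 1 was higher and 2 lower (42.9%, beside 27.7% of all tested genes called). The sum of 9 glial markers was 4164 to 4240 CPM in the controls and 3581 to 3744 CPM in PCD-blocked libraries, mostly from Gs2. The glial transcription factor gene repo rose by 0.34 on the log2 scale (0.05 SE, edgeR adjusted p = 0.00169), Gs2, for glutamine synthetase, fell by 0.24 and Gli by 0.18, the last a call lost without pair 3 (edgeR adjusted p = 0.0673). Of 7 neuronal markers, 1 was higher and 0 lower (14.3%). Their sum was 3250 to 3385 CPM in the controls and 3247 to 3518 CPM in PCD-blocked libraries. Of 5 tested hemocyte markers 0 were called, at sums of 21.1 to 25.3 and 24.2 to 30.1 CPM. The fat body gene apolpp rose by 1.44 on the log2 scale, while the yolk protein genes Yp2 and Yp3 fell by 1.59 and 2.04, calls lost with DESeq2 (adjusted p = 0.121 and 0.0960) and without pair 1 or 2. Act88F of the muscle list, Fbp1 of the fat body list and He of the hemocyte list had at most 3 counts in every library. Other members of the same lists were detected, with control means of 33.7 CPM for sls, 20.2 CPM for apolpp and 18.3 CPM for Hml. The part of these cell types in the change of Ldh was not tested.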

How the data were processed

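The authors deposited raw counts of reads per gene, with 1 file per library. Tools named in the submitters' processing notes are HTSeq 0.9.1, STAR 2.5.3a and cutadapt 1.8, beside the build BDGP6, without roles or settings. Strandedness of counting and annotation release were not given in the sources used here. Per the labels' protocols, poly(A) RNA was taken from 100 ng of total RNA and libraries were directional. In each file 5 rows name no gene. They held 11.9% to 13.5% of counts and were left out. Positions and exon lengths come from the Ensembl BDGP6 annotation, which held 17560 of 17698 identifiers.

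The main test was edgeR's (4.0.16, R 4.3.3) quasi-likelihood test after TMM scaling, with the default expression filter by group (9181 genes) and the sample pair as a block, since the series text calls the design paired. Benjamini-Hochberg adjustment covered all tested genes, and an adjusted p under 0.05 was called. CPM were taken on TMM-scaled library totals. SE were derived from the fold change and its statistic. Pooled collections are the replicates, and the labels do not say what a pair shares. Ratios used SciPy 1.17.1.

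The genes, the 8 pathway lists, the 6 marker lists and the alternatives (DESeq2 1.42.0, limma-voom with limma 3.58.1, other scalings and filters, no block, each pair left out) were chosen with earlier results of these data known. Named list genes are those past the threshold, or else the 2 with the smallest p, and the 5 genes nearest to Ldh. Other named genes (the neighbours of Ldh, overlapping partners, markers and some list genes given as uncalled) were chosen after their values were seen. Of the listed genes, Fum1 was not analysed here, and CG3409 is a synonym of chk.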

Additional observations from a re-analysis of the deposited data

Results flagged for a closer look

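The rows that name no gene, which no comparison used, made up a larger share of counts in PCD-blocked libraries, 12.8% to 13.5% against 11.9% to 12.7% in controls, a difference of means of 0.834 percentage points. Reads that aligned to several places accounted for 0.827 percentage points of difference on their own, at 8.04% to 8.52% against 7.21% to 7.67%. Such reads are missing from the counts of near-identical gene copies, and their part in the values of Gapdh1 and Gapdh2 was not tested. No group had enough libraries for a test of single outlying libraries.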

How the results depend on the processing

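Ldh and Eno were called higher under all 10 alternatives, with log2 fold changes of 2.09 to 2.54 and 0.18 to 0.22. The excess of Ldh over the median of the other 9 genes ran from 2.02 to 2.41. Scaling moved the median of all genes by less than 0.01. Without 1 pair, log2 fold changes were 0.11 to 0.21 for Pfk, 0.095 to 0.15 for Pgk, 0.14 to 0.21 for Pglym78 and 0.064 to 0.13 for Gapdh2. With no replicate block they were 0.17 for Pfk, 0.13 for Pgk and 0.18 for Pglym78, all no longer called, and DESeq2 gave 0.12 for Pgk. Higher calls among the 10 genes numbered 2 to 5 without 1 pair and 2 with no replicate block. DESeq2 called 653 genes higher and 662 lower in all, and 753 to 1065 and 728 to 1006 were called without 1 pair.

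Among the lists, leaving out 1 pair gave 0 to 1 higher entry genes, 1 to 3 higher genes of sugar supply, 0 to 1 higher genes of pyruvate and NADH use, 2 to 3 higher and 0 to 1 lower monocarboxylate transporters and 0 to 1 higher genes of the tricarboxylic acid cycle. With no replicate block 1 gene of sugar supply was higher, 0 genes of pyruvate and NADH use were higher and 0 lower, 0 transporters were lower, 0 genes of the tricarboxylic acid cycle were higher and 1 regulator was higher. DESeq2 called 0 genes of pyruvate and NADH use higher, 1 transporter higher and 0 lower, 0 genes of the tricarboxylic acid cycle higher and 0 regulators lower. The cause of these losses was not tested. For Ldh against each of the other 9 genes, an exact sign-flip test over the pairs gave p = 0.25, the smallest that 3 pairs allow.

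Deviations from the group mean correlated at 0.07, 0.24 and -0.19 for same-numbered libraries over all tested genes, so those genes as a whole do not show the pairing. Among the 9 enzymes, libraries of pair 1 were the lowest of their groups for 7 (control) and 9 (PCD-blocked) and libraries of pair 3 the highest for 8 and 9. With no replicate block the SE of Tpi went from 0.0398 to 0.108 and that of Pglym78 from 0.0375 to 0.0863. Pooled collections and 3 libraries per group limit what the small fold changes can resolve.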

Other observations

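Tps1, the trehalose synthesis gene of the sugar supply list, varied more between libraries of a group than any difference between the groups. It had 529, 1285 and 169 counts in control 1, 2 and 3 and 0, 890 and 1374 counts in PCD-blocked 1, 2 and 3. The count of 0 in PCD-blocked 1 allows up to 0.192 CPM, counting error only, against 51.5 CPM in PCD-blocked 2 and 77.2 CPM in PCD-blocked 3. The fitted log2 fold change of 0.03 ± 0.82 (SE) was not called (adjusted p = 0.983 with edgeR).

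Tps1 was 1 of 15 genes that had at most 3 counts in 1 library of a group and at least 100 in another, a criterion chosen after seeing Tps1. Sodh1 had 44, 80 and 18 counts in controls and 0, 82 and 154 in PCD-blocked libraries. P5CS, for an enzyme of proline synthesis, had 38, 154 and 16 counts in controls and 2, 116 and 171 in PCD-blocked libraries. Prat2, a gene of purine synthesis, had 35, 84 and 10 counts in controls and 0, 92 and 128 in PCD-blocked libraries. Mhc had 51, 292 and 22 counts in controls and 0, 32 and 384 in PCD-blocked libraries. By CPM, PCD-blocked 1 was the lowest of all libraries for 13 of the 15 genes, Act79B and Obp56g being the exceptions, and control 3 was the lowest control for 14, Obp56g being the exception. What these libraries share for such genes was not tested.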
